A study of Mus musculus with 8 samples.

Results

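Embryoid bodies with induced Oct6 were compared at day 4 against day 2, gene by gene, with 1 RNA-seq library per side. Genes were counted when their FPKM (fragments per transcript length, scaled to the mapped fragments of the library) was 1 or more in either library, which took in 12800 of the 22558 genes of the table and 2 of the 8 libraries of the series. Of these genes 11881 were at 1 or more in both libraries, 475 only at day 4 and 444 only at day 2. Each difference is log2(FPKM + 1) at day 4 minus the same at day 2, so that 1 stands for a 2-fold difference and folds of weakly expressed genes are understated. At the floor, Alox12 (1.0005 at day 4, 0.891 at day 2) and Gpha2 (0.773 and 1.001) were just inside, and Zfp455 (0.9996 and 0.769) and Mfap1b (0.901 and 0.99996) just outside. Without replicate libraries no test was made, and "higher" and "lower" below describe these 2 libraries.

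The study asked what Oct6 does while mouse embryonic stem cells differentiate towards neural cells. The cells, lines R1 and R1/E, had been kept on feeder cells and were then grown as embryoid bodies, floating aggregates that can form derivatives of all germ layers. The induced libraries, titled with Dox, come from cells in which overexpression of Oct6 is switched on by doxycycline, an antibiotic used as an inducer, and were taken at embryoid body day 2, day 4 and day 6. The control libraries come from control cells at the same days. The treatment protocol gives 6 days of the drug for control and inducible cells together. The labels do not say which of the named lines gave which arm, whether the inducible cells are 1 clone, or whether the control libraries come from treated cells, so line and drug cannot be told apart from Oct6 between arms. All RNA library titles carry a prefix, fbs, that no label explains, while the growth protocol describes serum-free differentiation. An Oct6 ChIP library and its input were made at day 4 of neural differentiation from cells overexpressing Oct6.

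Oct6, encoded by Pou3f1, belongs to the class III POU transcription factors, is expressed in the epiblast and later in neural and glial cells, and binds octamer-like DNA words. Stem cells in embryoid bodies pass through an epiblast-like state. From there they either take a neural path or, under Wnt, Nodal and FGF signals, form a primitive streak whose cells become mesoderm and endoderm. In bulk RNA, fewer cells of a type and less RNA per cell cannot be told apart.

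Small RNAs left aside, the largest differences between day 4 and day 2 in induced embryoid bodies were in primitive streak and endoderm genes, led by T, Cer1 and Mixl1, which were higher at day 4. Sct, Neurod1 and Insm1, genes of hormone-producing cells or young neurons, were abundant at day 2 and lower at day 4. The core pluripotency genes Pou5f1 and Sox2 were close to their day 2 level. At least 2-fold higher at day 4 were 350 genes, which is 2.73% of those counted, and at least 2-fold lower were 302, or 2.36%, which makes 5.09% either way. The larger differences lay mostly on the higher side, with 57 genes past 4-fold in the higher direction (0.445%) and 28 in the lower (0.219%). The median difference over all counted genes was 0.05 (quartiles -0.21 and 0.29), and 84.0% of genes lay within 1.5-fold.

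The 2 libraries had nearly equal depth, an estimated 2.59e+07 fragments at day 4 and 2.72e+07 at day 2, and 12356 and 12325 genes at an FPKM of 1 or more. At that depth an FPKM of 1 in a 2 kb transcript rests on about 51.8 fragments at day 4 and 54.4 at day 2. The 6 RNA libraries ranged from 2.34e+07 to 5.1e+07, control day 4 being the deepest. Among the higher genes 139 had reached the floor only at day 4, and among the lower ones 96 only at day 2. Symbols of small RNAs, predicted genes or pseudogenes made up 43 of the higher and 50 of the lower genes. Their values are uncertain, and they include the lowest difference of all, that of the small nucleolar RNA Snord19, listed at 0 at induced day 4 against 151 FPKM at day 2. Of the higher genes 34 were listed at 0 at day 2, and of the lower genes 32 at day 4.

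In control embryoid bodies, whose day 4 and day 2 libraries are not shared with the induced comparison, 1186 of 12314 counted genes (9.63%) were at least 2-fold higher at day 4 and 572 (4.65%) at least 2-fold lower, 14.3% in all. Over the 12800 genes the interquartile range of the difference was 0.497 in the induced and 0.713 in the control arm. Across these genes, which are not independent replicates and whose libraries share the days, the differences of the 2 arms had a Pearson r of 0.571. Of the 350 genes higher in induced bodies, 201 (57.4%, 95% Wilson interval 52.2 to 62.5) were also at least 2-fold higher in control, 140 (40.0%) were within 2-fold there and 9 were at least 2-fold lower. Of the 302 lower genes, 105 (34.8%, 29.6 to 40.3) were also lower in control, 185 (61.3%) within 2-fold and 12 higher. Among the 12148 remaining genes 7.40% were 2-fold higher and 3.50% 2-fold lower in control. These intervals cover counting error over genes only.

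**Figure D1:**
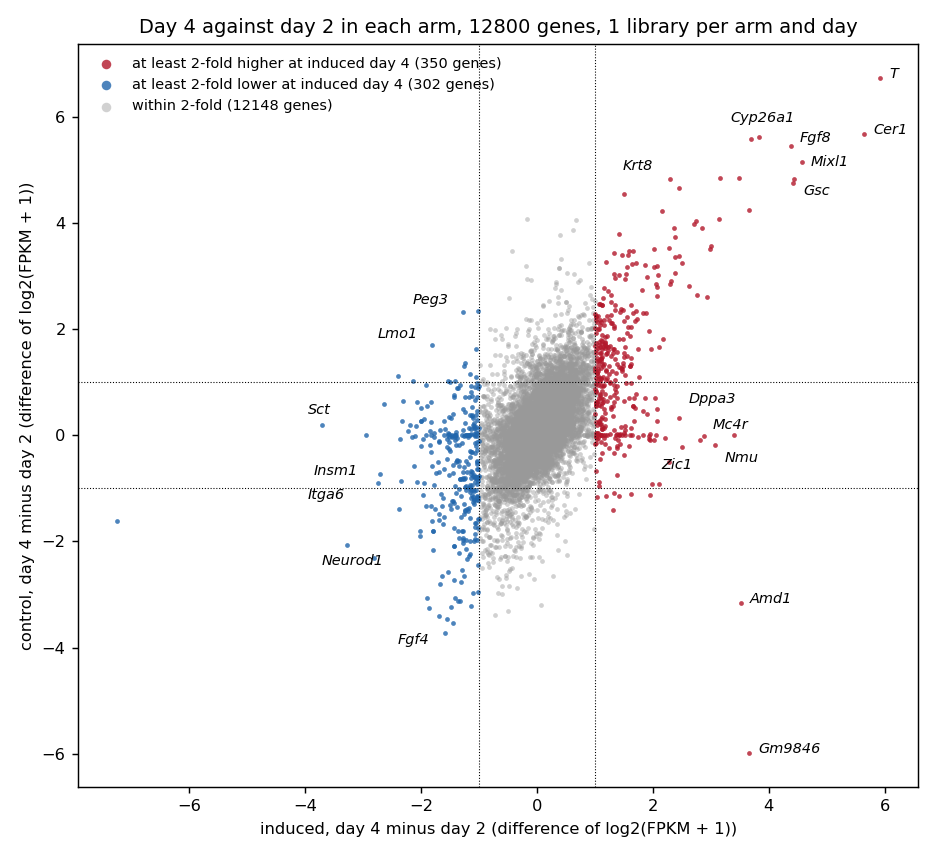
Each point is 1 of 12800 genes: the x axis gives the induced and the y axis the control difference of log2(FPKM + 1), day 4 minus day 2, with dotted lines at 2-fold. The 350 higher genes (red) spread along the diagonal up to T and along the horizontal zero line (Nmu, Mc4r), and the 302 lower genes (blue) lie mostly between zero and the lower diagonal. The unlabelled blue point far left is Snord19.

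The 201 genes higher in both arms had median FPKM values of 1.96, 8.24 and 11.7 at induced days 2, 4 and 6, and of 1.46, 12.5 and 10.7 on these days in control. The 140 genes higher only in the induced arm by the 2-fold rule had medians of 1.67, 5.38 and 5.45 there and 0.526, 1.03 and 2.37 in control. The 185 genes lower only in the induced arm by the same rule had 6.71, 1.49 and 1.48, against 1.01, 0.844 and 0.863 in control. The classes were chosen on the day 2 and day 4 values, so the order of the medians on these days follows from the choice. The difference between arms was not tested for any class or gene.

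Pou3f1 itself checks the label. Its FPKM was 312, 222 and 86.8 at induced days 2, 4 and 6, and 64.3, 10.1 and 4.76 in control. From day 2 to day 4 the difference was -0.49 in the induced arm and -2.55 in the control arm, so the induced level stayed high while the control level was low by day 4. The table does not separate transgene from endogenous transcripts. The summed FPKM of 6 stem cell and epiblast markers (Pou5f1, Sox2, Nanog, Utf1, Tdgf1, Zfp42) was 1117 at induced day 4 and 903 at day 2. Tdgf1 (349 against 140) and Nanog (115 against 52.998) were at least 2-fold higher, while Pou5f1 and Sox2 were level. Utf1 (54.8 against 100.2) and Zfp42 (88.1 against 106.4) had lower values at day 4. The control sum of these markers was lower at day 4, with 1331 against 1912. The summed FPKM of 4 neural markers (Sox1, Pax6, Zic1, Tubb3) was 38.9 at induced day 4 and 54.5 at day 2. Of these 4, Tubb3 had the lower value at day 4 (28.6 against 50.7), while Sox1, Pax6 and Zic1 had higher ones. Only Zic1 was past 2-fold on the log2(FPKM + 1) scale. In control the neural sum was 3.22 at day 4 and 17.2 at day 2. The class III relatives of Pou3f1 were weak: Pou3f3 had 3.80 FPKM at induced day 4 against 1.77 at day 2, Pou3f4 had 2.86 against 1.34, and Pou3f2 stayed at 0.147 against 0.182.

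Most of the 5 largest differences among the named genes belong to the primitive streak, the transient structure through which mesoderm and endoderm precursors leave the epiblast. T (Brachyury), the T-box factor that defines it, had 1.25, 135 and 36.1 FPKM at induced days 2, 4 and 6, and 0.856, 196 and 38.8 in control. Its difference from day 2 to day 4 was 5.92 in induced and 6.73 in control bodies. Mixl1, a homeobox factor of mesendoderm, had 43.4 against 0.870 (4.57), and Gsc, a homeobox factor of the organizer, 23.1 against 0.114 (4.44). Eomes, a T-box factor that acts before and with T in endoderm and cardiac mesoderm, had 54.5 at day 4 and already 7.45 at day 2 (2.72). These factors, Eomes excepted, were thus between 0.114 and 1.25 FPKM at day 2 and abundant at day 4. Lhx1, a LIM homeobox factor of the anterior streak, stood at 18.3 against 0.504, Evx1, a homeobox factor of the posterior streak, at 9.55 against 0.201, and Foxa2, a forkhead factor of endoderm and node, at 16.1 against 2.51. Aplnr, the apelin receptor of early mesoderm, stood at 10.2 against listed at 0, and Grrp1 at 8.86 against 0.252.

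Genes of later or more lateral mesoderm had lower levels. Mesp1, a factor of early cardiovascular mesoderm, had 1.81 FPKM at induced day 4 against 0.0604 at day 2, where control had 12.8 against listed at 0. Msgn1, a factor of presomitic mesoderm, had 2.31 against listed at 0. Kdr, the VEGF receptor of early mesoderm, stayed under the floor with 0.834 against 0.0839, and Pdgfra had 1.18 against 1.32, while control day 4 had 6.97 and 5.40 for these receptors. Tcf15, a bHLH factor active in epiblast and in somites, was lower, with 8.95 against 25.5 (-1.41), and also lower in control, with 4.12 against 42.0. Of the 27 genes of the streak and nascent mesoderm list, 19 passed the floor, 9 of them only through day 4. Among the 19, 13 were at least 2-fold higher and 1 lower, with a median difference of 2.07 beside 0.05 for all genes. Over all counted genes 2.73% were higher and 2.36% lower, the shares to set beside this list and those that follow. Over all 27 members, floor ignored, the median was 0.91.

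**Figure D2:**
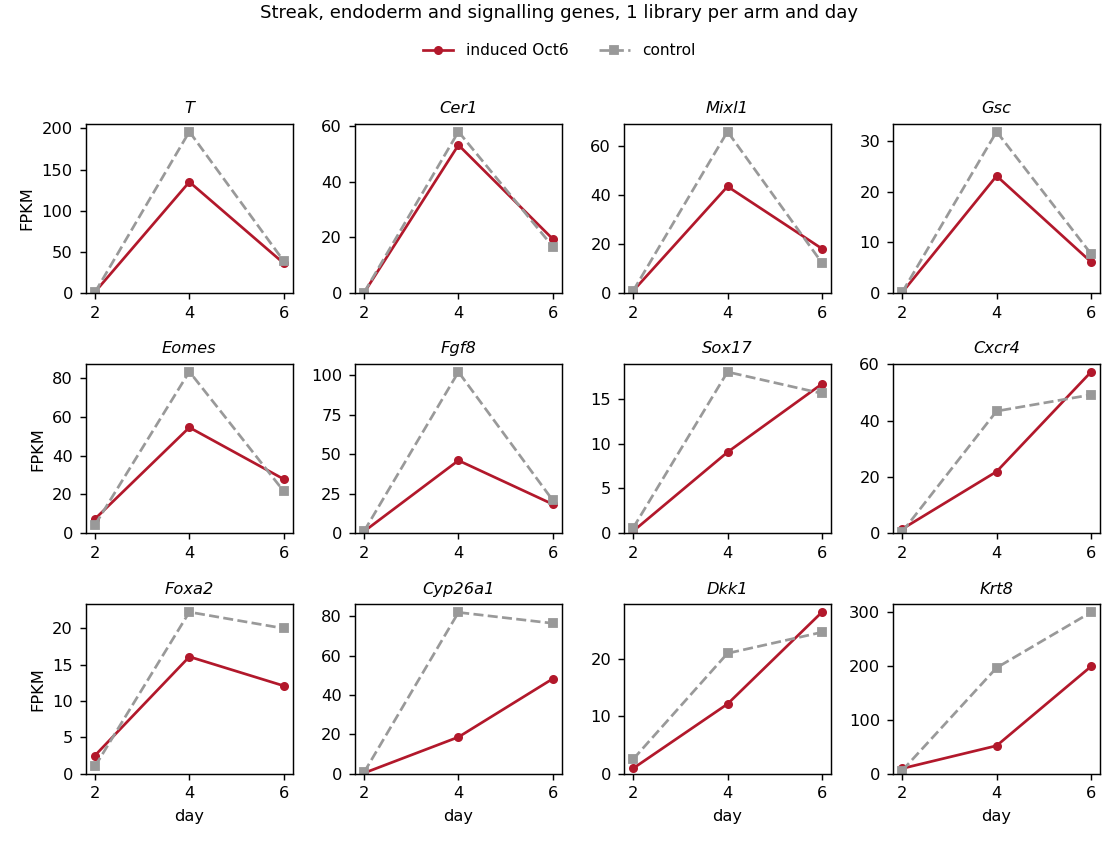
FPKM (y axis, from 0) by day (x axis) for 12 genes of the streak, endoderm, Wnt and retinoic acid pathways and keratins, 1 library per arm and day, induced in red and control in grey. T, Cer1, Mixl1, Gsc, Eomes and Fgf8 peak at day 4 in both arms, with a lower induced value at day 4, while Cxcr4, Dkk1 and Krt8 are higher still at day 6 in both arms.

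Several genes of the endoderm list were higher at induced day 4 as well, whereas 5 markers of visceral endoderm, an extraembryonic layer of the early embryo, were scarce on both days. Which type of endoderm the higher genes come from was not tested. Cer1, a secreted antagonist of Nodal, BMP and Wnt made by anterior endoderm, had 53.1 FPKM at induced day 4 against 0.0864 at day 2 (5.64). Sox17, an endoderm determining factor, had 9.04 against 0.248, Cxcr4, a chemokine receptor of definitive endoderm, 21.9 against 1.56, and Gata6, a zinc finger factor of endoderm, 7.87 against 2.04. The summed FPKM of 5 visceral endoderm markers (Cubn, Lrp2, Amn, Ttr, Afp) was 3.41 at induced day 4 and 3.37 at day 2, where control had 76.1 and 24.5. Among them the endocytic receptors Cubn and Lrp2 had 0.799 against 0.527 and 1.81 against 2.12, and Ttr and Afp stayed at or below 0.200 in both libraries. Dab2, their adaptor protein, had 3.69 against 3.22, while control had 45.7 against 12.3. Of the 27 genes of the endoderm list 16 passed, 4 only through day 4 and 2 only through day 2. Of the 16, 7 were higher, Spink3 (6.48 against 0.773) and Emb (243 against 94.9) included, and 1, the iron carrier Trf (0.518 against 4.33), was lower. The list median was 0.94, and 0.13 over all 27 members.

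Signals known to act around the streak included some of the larger differences. Fgf8, a growth factor of streak and epiblast, had 46.0 FPKM at induced day 4 against 1.27 at day 2 (4.37), while Fgf4, the FGF of pluripotent cells, had 7.53 against 24.7 (-1.59) and Fgf5, an epiblast FGF, 32.6 against 14.9. The other FGF and ERK genes of the list stayed within 2-fold, such as the feedback inhibitors Spry2 (81.7 against 98.4) and Dusp6 (86.1 against 74.7). Among ligands and inhibitors of Wnt, Wnt3, which induces the streak, had 7.03 against 0.913, and Dkk1, a secreted inhibitor, 12.1 against 0.935. Of the Wnt targets, Sp5, a zinc finger factor, had 23.1 against 0.906, and Axin2, a feedback inhibitor, 13.6 against 4.09. In all, 7 of the 20 Wnt genes that passed, 4 of them only through day 4, were higher and 1 lower, with a median of 0.35. The lower one was Shisa3, whose family is known from Xenopus for holding back Wnt and FGF receptors in the endoplasmic reticulum: it had 14.8 FPKM at induced day 4 against 62.3 at day 2, and under 2 in every control library.

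Nodal pathway genes went both ways. Nodal was level at 28.5 against 27.8 FPKM, and its co-receptor Tdgf1 (Cripto) was higher at 349 against 140. The feedback inhibitor Lefty2 was lower at 33.9 against 118, and so was Gdf3, a ligand that works with Nodal, at 25.6 against 66.5. The list of 13 held 2 higher and 2 lower genes, with a median of -0.20. In the BMP list 2 of 16 genes were higher, the homeobox target Msx1 (17.1 against 2.68) and the ligand Bmp7 (3.79 against 1.15), and 1 was lower, the antagonist Grem1 (2.14 against 5.54). The direct targets Id1 and Id2 had 58.2 against 101 and 62.8 against 96.8, and Id3 had 100 against 63.5. Among 9 Hedgehog genes the receptor and target Ptch1 was lower, at 8.51 against 20.9, and the co-receptor Gas1 higher, at 9.63 against 3.60. The target Gli1 had 2.77 against 5.40. Of 13 Notch genes 3 were higher, the targets Hes1 (24.4 against 7.30) and Nrarp (9.12 against 1.66) and the ligand Jag1 (7.55 against 2.58), and none lower. The medians were 0.43 for BMP, 0.14 for Hedgehog and 0.19 for Notch genes. Of all counted genes 2.73% were higher and 2.36% lower, and no list count was tested against these shares.

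Among retinoic acid genes the degrading enzyme Cyp26a1 was higher at 18.7 FPKM at induced day 4 against 0.380 at day 2 (3.83). The binding proteins Crabp1 and Crabp2 were higher as well, at 85.4 against 21.8 and at 33.6 against 12.2. The synthesising enzyme Aldh1a2 had 1.03 against 1.90 and the receptor Rarg 13.5 against 25.6. Thus 4 of 9 list members that passed were higher and none lower, with a median of 0.12. Crabp1 in control was level, at 6.11 against 6.46.

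The opposite course, high at induced day 2 and lower at day 4, was led by hormone and neuronal genes. Sct, the gut hormone secretin, had 30.4, 1.399 and 4.47 FPKM at induced days 2, 4 and 6, a difference of -3.71 between day 4 and day 2, and between 0.412 and 1.04 in control. Neurod1, a bHLH factor of neurons and endocrine cells, had 22.7, 1.45 and 0.430 on these days (-3.28), and 4.19, 0.233 and 0.420 in control. Insm1, a zinc finger factor of endocrine and neuronal precursors, had 59.7, 8.12 and 5.69 (-2.73), and 1.001, 0.0785 and 0.294 in control. Gcg, the proglucagon gene, had 4.35 against 19.06 and was listed at 0 in all 3 control libraries. Ebf2 and Ebf3, related factors of neuronal differentiation, had 1.05 against 8.11 and 8.82 against 37.3. For all of these the induced level was highest at day 2. Neurog1, a proneural bHLH factor, had 0.665 against 3.87, and Nhlh1, another bHLH factor of young neurons, 1.49 against 6.16.

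Other genes with this course included cell surface and signalling proteins. Itga6, a laminin receptor subunit, had 18.2 FPKM at induced day 4 against 124 at day 2, and Cntn2, an axonal adhesion molecule, 8.78 against 39.8. Lmo1, a LIM-only cofactor, had 33.3 against 120, while control had 3.04 against 0.244. Gnat3, the taste cell G protein subunit gustducin, had 0.370 against 9.55, Prokr2, a prokineticin receptor, 0.330 against 5.19, and Gpr50, a relative of melatonin receptors, 1.39 against 11.3. Cd34, a sialomucin of vascular and blood progenitors, had 2.45 against 16.9, and Laptm5, a lysosomal protein of blood cells, 1.56 against 16.9. Both were lower in control too, Cd34 with 0.819 against 3.78 and Laptm5 with 0.307 against 5.47. Markers of blood were close to 0 in both libraries: Hbb-bh1, Hba-x and Gata1 summed to 0.425 at day 4 and 0.638 at day 2. Gcnt4, Klf14, Gsx1, S100a6 and AI593442 completed the 15 largest lower differences, between -2.31 and -2.11. S100a6, a calcium-binding protein, was higher in control, with 28.1 against 13.3.

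**Figure D3:**
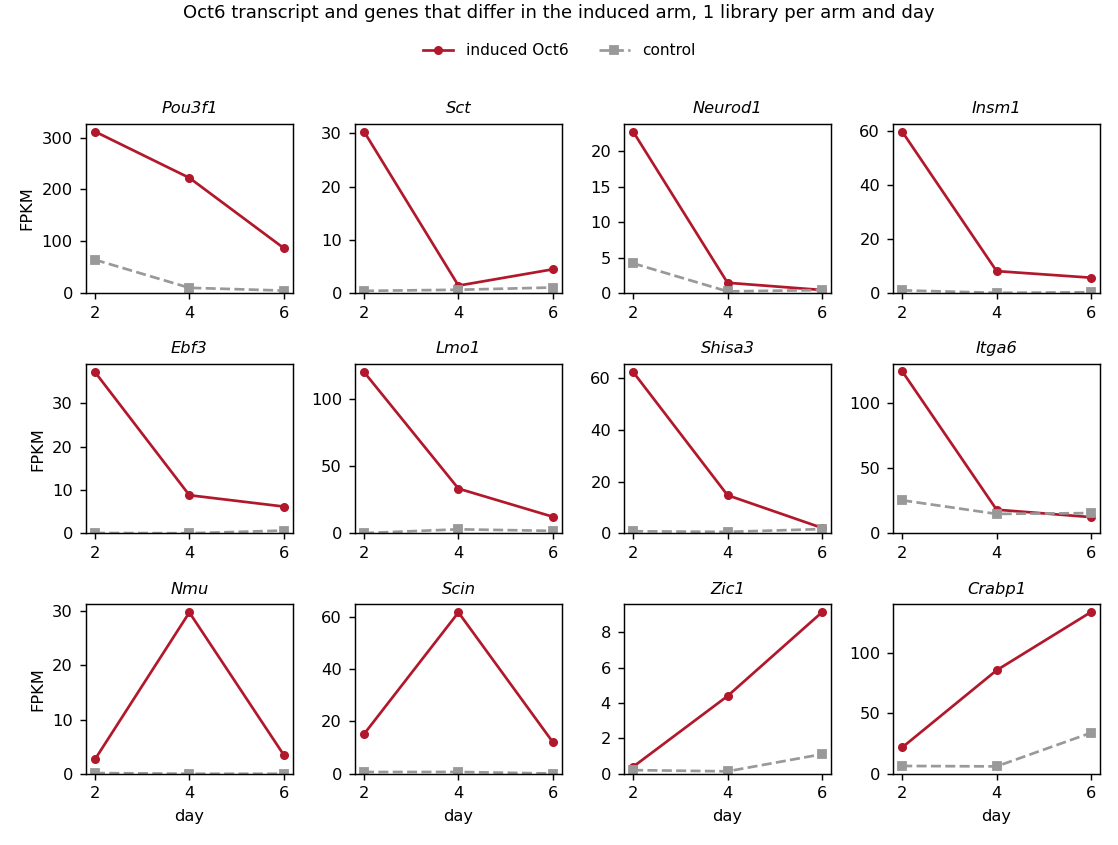
FPKM (y axis, from 0) by day (x axis) for Pou3f1 and 11 genes, 1 library per arm and day, induced in red and control in grey. Sct, Neurod1, Insm1, Ebf3, Lmo1, Shisa3 and Itga6 are highest at induced day 2, Nmu and Scin at induced day 4, and Zic1 and Crabp1 at induced day 6.

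Of 34 neuron and proneural genes with a value, 25 passed the floor, 2 only through day 4 and 3 only through day 2. Of the 25, 7 were at least 2-fold lower and 2 higher, with a median of -0.32. The lower ones were Neurod1, Insm1, Ebf2, Ebf3, Neurog1, Nhlh1 and the neurofilament gene Nefl (12.1 against 25.7). The higher ones were Dcx, a microtubule protein of migrating neurons, with 3.43 against 0.719, and Stmn3, a tubulin-binding protein, with 16.1 against 6.95. Tubb3, the neuronal beta tubulin, had 28.6 against 50.7 and remained within 2-fold. Control values of Dcx stayed between 0.0438 and 0.132.

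Neural progenitor and patterning genes were mixed, and of the 4 that were higher at induced day 4, Zic1 and En2 were not higher in control. Zic1, a zinc finger factor of the dorsal neural plate, had 4.39 FPKM at induced day 4 against 0.396 at day 2 (1.95), and 0.139 against 0.207 in control. Fabp7, a lipid-binding protein found in radial glia, had 16.6 against 4.21, and was also higher in control, with 2.03 against 0.418. En2, a homeobox factor of midbrain and hindbrain, had 6.82 against 2.42, where control had 0.193 against 1.64. Sox1, an early neural plate marker, had 2.61 against 0.909 and Pax6 3.30 against 2.57. On the log2(FPKM + 1) scale the differences were 0.92 and 0.27, under the 2-fold threshold. The Sox1 values as such lie more than 2-fold apart, which the added 1 understates. The lower genes included Sox21 (9.64 against 22.6) and Nkx6-2 (0.430 against 2.10). Of 30 progenitor genes 21 passed, 5 only through day 4 and 2 only through day 2. Of the 21, 4 were higher (Zic1, Fabp7, Zfp521, En2) and 3 lower, with a median of 0.58, or 0.27 over all 30 members.

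Of 15 neural crest genes 10 passed, 3 only through day 4 and 1 only through day 2, with a median of 0.69, or 0.50 over all members. Of the 10, 3 were higher, Msx1, Pax3 (2.45 against 0.531) and the endothelin receptor Ednrb (1.19 against 0.0858), and none lower. The Ednrb difference of 1.01 is at the threshold. Of 29 Hox, Cdx and Meis genes, which set posterior identity, 14 passed, 2 only through day 4 and 1 only through day 2, and 2 were higher: Cdx2 with 5.12 against 0.999 and Hoxb8 with 4.56 against 0.963. Hoxb1 to Hoxb3 had 4.42, 7.76 and 5.41 FPKM at induced day 4 against 2.27, 3.46 and 2.29 at day 2, differences of 0.73, 0.97 and 0.96. The list median was 0.53, or 0.24 over all members.

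Another set was abundant at induced day 4 and, Calca, Apln and Fst excepted, scarce in control at that day. Of these Mc4r, Ptn and Calca were named after their values were seen. Nmu, the neuropeptide precursor of neuromedin U, had 2.65, 29.8 and 3.48 FPKM at induced days 2, 4 and 6, and at most 0.141 in control. Mc4r, the melanocortin receptor of feeding circuits, had 12.6 against 0.851, and Ptn, the growth factor pleiotrophin, 18.5 against 2.45. Calca, the gene of calcitonin and CGRP, had 30.1 against 3.41, while control had 11.5 against 12.3. Scin, the actin severing protein scinderin, had 15.2, 61.7 and 12.1 at induced days 2, 4 and 6, and at most 0.704 in control. Nmu and Scin were thus highest at day 4, and so were Apln, the ligand of Aplnr, with 0.604, 8.04 and 1.39, and Fst, an activin antagonist, with 13.2, 56.9 and 14.1.

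Other genes kept their direction to day 6 or turned back, in a comparison with day 4 that shares the day 4 library. Krt18, Krt8, Spink3, Fabp7, Cfc1 and Cxcr7 were at least 2-fold higher again. Cfc1, a co-receptor of Nodal, had 0.102, 5.05 and 18.9 FPKM at induced days 2, 4 and 6, and Cxcr7, a chemokine scavenging receptor, 1.33, 6.18 and 24.4. Shisa3, Mgp, Tcf15, Car3 and Lmo1 were lower again, such as Car3, a carbonic anhydrase, with 24.1, 6.20 and 1.74. Vcan, Tgfbi, Cdkn1c and Peg3 were lower at day 4 and higher again at day 6. Vcan, the matrix proteoglycan versican, had 32.4, 9.30 and 28.7, and Tgfbi, a matrix adhesion protein, 9.47, 2.34 and 7.30.

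Most pluripotency genes were within 2-fold, as were most genes, since 5.09% of all counted genes were past it either way. The core and naive lists held larger shares past it, as counted below. Pou5f1, the gene of Oct4, had 445 FPKM at induced day 4 against 436 at day 2, and Sox2 65.9 against 66.7, where control had 495 against 890 and 35.5 against 135. Nanog, the homeobox factor of pluripotent cells that is also present in the early streak, was higher with 115 against 52.998 (1.10). Dppa5a had 1247 against 874, while control had 427 against 2052. Of 17 core genes 2 were higher (Tdgf1 and Nanog) and 2 lower (Dppa2 and Gdf3) in the induced arm, with a median of -0.36, while 10 were lower in control, with a median of -1.12. Of 16 naive state genes 1 was higher, Dppa3 (10.5 against 1.09), a maternal and germ cell factor, and 3 were lower, Fgf4, Klf5 (14.7 against 40.8) and Gbx2 (9.28 against 25.3). The median was -0.32, and in control 10 of 16 were lower, with a median of -1.67. Among epiblast genes Otx2, a homeobox factor of the anterior epiblast, had 31.0 against 9.67, while Dnmt3b was level at 89.4 against 92.7. Of 17 primed epiblast genes, 1 of which passed only through day 4, 4 were higher (Cer1, Fgf8, Otx2, Fgf5) and none lower. Their median was 0.29, and in control 5 were higher and 4 lower, with a median of -0.32. The germ cell genes Tex19.1 (11.8 against 39.6), Dazl (1.46 against 5.60) and Mael (5.70 against 15.4) were lower. Prdm1, the regulator of germ cell fate, was higher with 3.60 against 0.801. The control differences had the same signs, -2.81 for Tex19.1, -1.75 for Dazl, -2.54 for Mael and 1.03 for Prdm1. In all, 11 germ cell genes passed, 1 only through day 4, and 2 were higher (Dppa3 and Prdm1) and 3 lower. Their median was -0.06, and in control 2 were higher and 4 lower, with a median of -0.22. Dnmt3l, a cofactor of de novo DNA methylation, had 14.5 against 55.2, and the dioxygenase Tet1 7.01 against 18.3. These were the 2 lower genes among 10 of DNA methylation, which had a median of -0.44. Dnmt3l and Tet1 were also lower in control, with differences of -3.25 and -1.93.

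**Figure D4:**
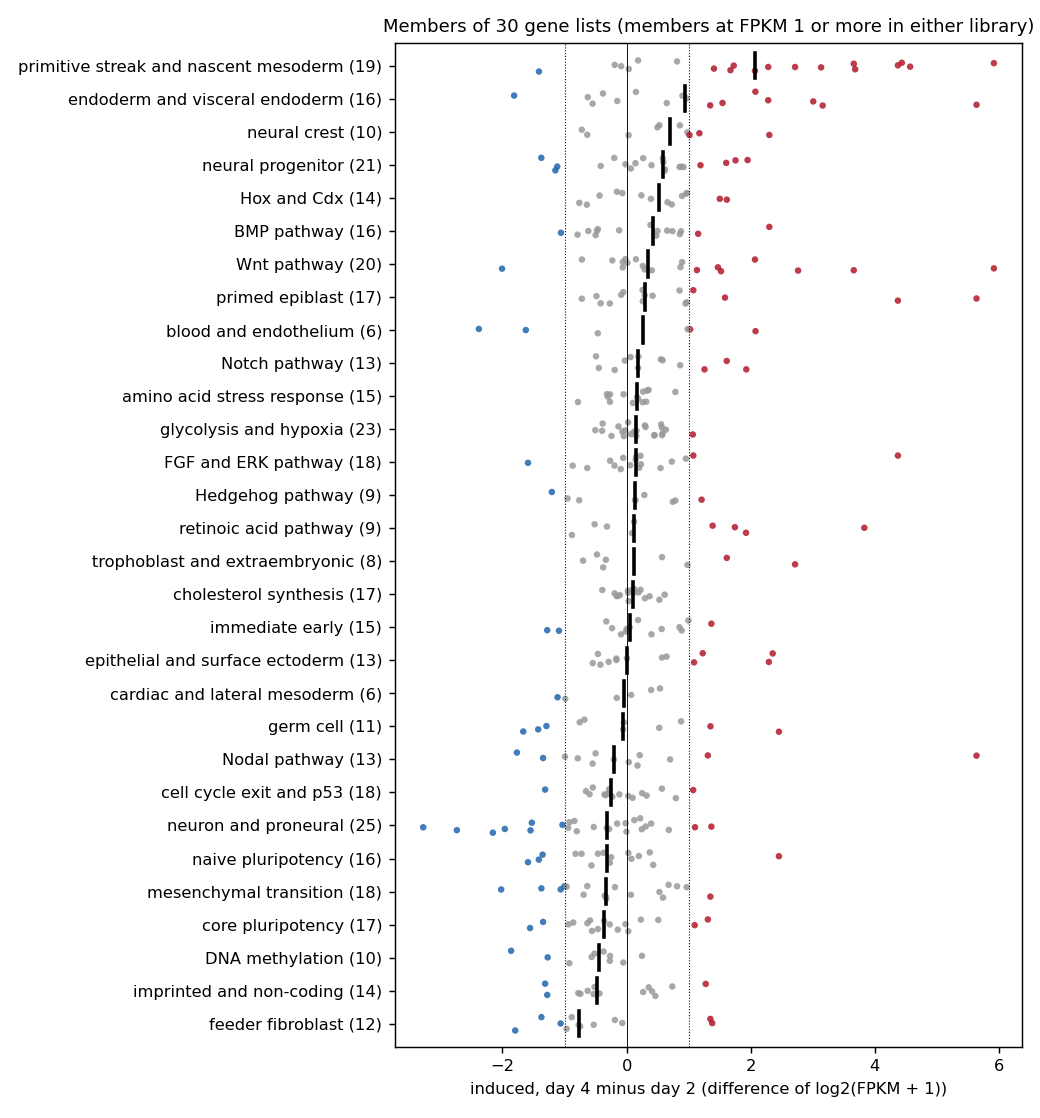
Each point is a member of 1 of 30 gene lists that passed the floor (number in brackets), placed by its induced day 4 minus day 2 difference of log2(FPKM + 1), with black bars at list medians and dotted lines at 2-fold. The medians run between 2.07 for the primitive streak list and -0.76 for the feeder fibroblast list.

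A few epithelial genes were higher and a few mesenchymal genes lower. The simple epithelial keratins Krt8 and Krt18 had 52.2 against 9.84 and 36.1 against 6.25 FPKM, and Cdh1 (E-cadherin) 53.7 against 78.8. Of 13 epithelial genes 4 were higher, Cldn4 (21.2 against 8.48) and the splicing factor Esrp1 (21.4 against 9.52) being the others, and none lower, with a median of 0.01. In the mesenchymal list of 18, Postn, a matrix protein, was higher (5.36 against 1.496) and 4 were lower: the collagens Col1a2 (30.4 against 80.2) and Col1a1 (1.46 against 4.13), fibronectin Fn1 (88.0 against 178) and the calcium-binding S100a4 (2.44 against 12.98), with a list median of -0.33. The cells had been kept on feeders, and 12 genes of feeder fibroblasts, 3 of which passed only through day 2, had a median of -0.76, with 3 lower (Mgp, Col1a2, Col1a1) and 2 higher (Cxcl12, Postn). The summed FPKM of 7 defining fibroblast markers (Col1a1, Col1a2, Col3a1, Dcn, Lum, Postn, Thy1) was 41.4 at induced day 4 against 95.8 at day 2, where control had 9.28 against 11.1. Most of the induced sum was Col1a2, while Dcn and Lum had 0.988 against 2.34 and 0.473 against 1.13. The part of feeder cells in the collagen values was not tested.

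Beside the 5.09% of all genes past 2-fold either way, the remaining lists held between none and 4 such genes. None of 17 cholesterol synthesis genes and none of 15 amino acid stress genes was past 2-fold, with medians of 0.10 and 0.17. Of 23 glycolysis and hypoxia genes only Ddit4, an inhibitor of mTORC1, was higher (59.9 against 28.0), with a median of 0.16. Cdkn1c, an imprinted cell cycle inhibitor, was lower with 29.3 against 74.3 and Ccnd2 (cyclin D2) higher with 20.9 against 9.40, the only 2 of 18 cell cycle exit and p53 genes past 2-fold. Among 14 imprinted genes Cdkn1c and Peg3 (24.6 against 61.1) were lower and Nnat (118 against 48.3) higher. Of 15 immediate early genes, 2 of which passed only through day 4, Egr3 (3.28 against 0.660) was higher. Ctgf (30.1 against 74.4) and Myc (11.0 against 24.6) were lower. Among cardiac genes 6 of 19 passed, 3 of them only through day 2, and 1 of these 3, Myl4, was lower (0.673 against 2.62). Of 18 blood and endothelial genes 6 passed, 2 only through day 4 and 2 only through day 2. Of the 6, Flt1 (6.16 against 0.696) and Lmo2 (3.69 against 1.31) were higher and Cd34 and Tek (0.253 against 2.86) lower. In the trophoblast list, where 2 passed only through day 4 and 1 only through day 2, Eomes and Cdx2 were the 2 higher of 8.

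Precursors of the miR-302 cluster, which ends with miR-367, small RNAs that are switched on as stem cells become epiblast-like, were higher at induced day 4, and those of the miR-290 cluster of naive stem cells were lower or level. The list was chosen after the values were seen. The summed FPKM of 5 miR-302 genes was 49.3 at induced day 4 against 1.46 at day 2, and 106 against 3.74 in control. Mir302c had 20.4 and Mir302d 6.65, both listed at 0 at day 2, and Mir367 had 16.7 against 1.46. The summed FPKM of 7 miR-290 genes was 65.5 against 106, and 78.1 against 116 in control. Mir291b had 5.44 against 22.2 and Mir293 2.03 against 9.42, while Mir294 was level at 18.4 against 19.7 and Mir295 had 31.9 against 42.1. The hairpins are short, so that the value of Mir302c rests on an estimated 36.0 fragments, and those of Mir302a and Mir293 at day 4 on 3.83 and 4.199. FPKM of so short a gene reads precursor RNA and not the mature form. The mature sequences (RefSeq, GRCm38.p6, capitals mark the seed, bases 2 to 8) show that some members of both clusters carry the seed AAGUGCU. In the miR-302 cluster miR-302c-3p, whose entry begins 1 base later, has AGUGCUU and miR-367-3p has AUUGCAC. Of the miR-290 cluster, miR-291b-3p has AAGUGCA and miR-293-3p has GUGCCGC, and the precursors of both were lower at induced day 4. The sequences below are examples.
miR-302b-3p: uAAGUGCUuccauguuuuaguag
miR-302d-3p: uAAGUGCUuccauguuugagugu
miR-302c-3p: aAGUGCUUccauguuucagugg
miR-367-3p: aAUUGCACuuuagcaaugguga
miR-294-3p: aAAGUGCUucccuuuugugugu
miR-295-3p: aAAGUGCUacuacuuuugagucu

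**Figure D5:**
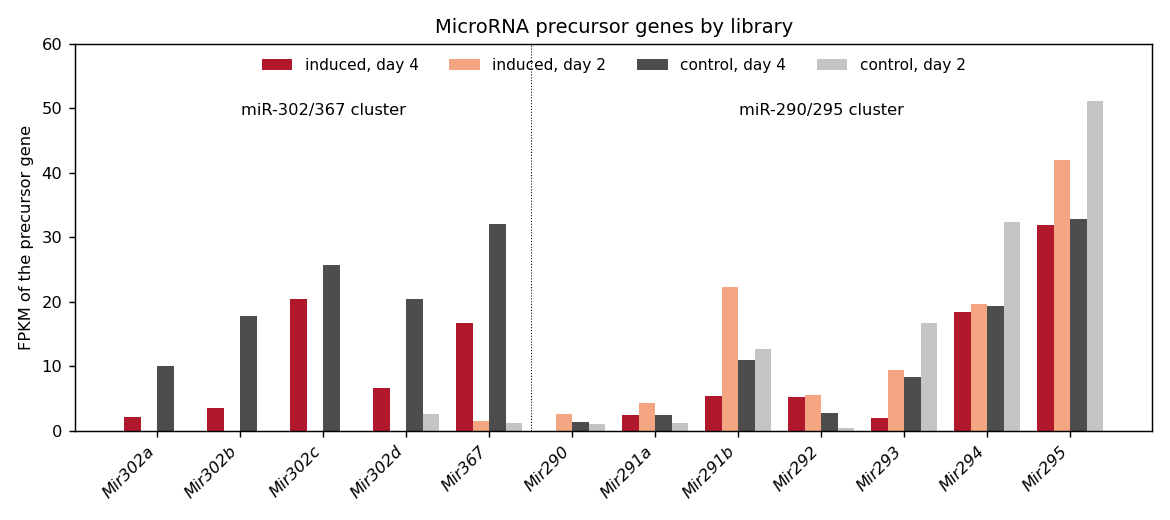
FPKM of the precursor genes (y axis, from 0) for 5 genes of the miR-302 and 7 of the miR-290 cluster in 4 libraries, from left to right induced day 4, induced day 2, control day 4 and control day 2. Each miR-302 bar is higher at day 4 than at day 2 of the same arm, from Mir302a (2.14 at induced day 4) to Mir302c (20.4), while miR-290 bars other than Mir290, listed at 0 at induced day 4, are above 0 on both days.

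The deposited list of 7979 Oct6 peaks at day 4 was set beside these differences. A peak centre within 10 kb of an annotated start was found for 59 of 335 annotated higher genes (17.6%, 13.9 to 22.1) and for 43 of 286 lower genes (15.04%, 11.4 to 19.6). The share among the other expressed genes was 2237 of 11953 (18.7%, 18.03 to 19.4). Both intervals thus hold the share of the other genes. Clustered microRNA precursors share a peak, so the 59 higher genes rest on 54 peaks and the 43 lower genes on 41. The intervals treat such genes as independent. The octamer word ATGCAAAT, read on both strands, lay in 2 of 54 peaks near higher genes (3.70%), in 4 of 41 near lower genes (9.76%), in 4.19% of all 7965 placed peaks and in 1.27% of flanking windows of the same length. The variant ATGCATAT lay in 2 of 54, in 1 of 41, in 7.18% of all peaks and in 1.09% of flanks. A matching word describes these letters and shows no bound site.

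Sequences of 4 peaks (mm9, plus strand, octamer words in capitals) are given to show the letters under the peaks of genes that differ between the days. The peaks with the highest deposited scores near higher and lower genes were 1 beside the miR-17/92 cluster and 1 in an intron of Esam, an endothelial adhesion molecule that had 1.13 FPKM at induced day 4 against 3.26 at day 2. The first lies 7126 bases downstream of the Mir92-1 start, beside precursors that differed in opposite directions, Mir92-1 at 12.7 against 1.84 and Mir19a listed at 0 against 1.58, while their host transcript Mir17hg had 87.1 against 64.9. The other 2 were chosen after the values were seen. They lie 9975 bases downstream of the Zic1 start, and in an intron of Larp7 3819 to 4324 bases upstream of the miR-302 precursors.
miR-17/92 cluster, chr14:115450709-115450841: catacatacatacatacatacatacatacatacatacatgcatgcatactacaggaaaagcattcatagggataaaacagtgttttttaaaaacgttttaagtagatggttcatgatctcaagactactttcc
Esam, chr9:37340435-37340567: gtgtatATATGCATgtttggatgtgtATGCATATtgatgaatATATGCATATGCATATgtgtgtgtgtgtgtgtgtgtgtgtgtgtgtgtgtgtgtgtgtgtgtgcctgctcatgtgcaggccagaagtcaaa
Zic1, chr9:91250607-91250739: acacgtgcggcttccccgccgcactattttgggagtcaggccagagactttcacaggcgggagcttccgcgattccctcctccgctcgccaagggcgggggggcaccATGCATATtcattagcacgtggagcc
miR-302 cluster, chr3:127244261-127244393: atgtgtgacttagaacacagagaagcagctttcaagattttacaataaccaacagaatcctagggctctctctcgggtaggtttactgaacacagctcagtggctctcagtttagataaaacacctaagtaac

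The Zic1 peak holds 1 variant of the octamer word, while the Esam peak holds overlapping variants beside a run of alternating bases. No octamer word was found in the windows at the microRNA clusters. Peaks within 10 kb also lay by Eomes (429 bases into the gene), Hoxb8, Ptch1, Neurod1, Lmo1 (224 bases upstream) and Igfbpl1, an insulin-like growth factor binding protein relative that had 16.9 FPKM at induced day 4 against 53.2 at day 2.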

How the data were processed

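RNA-seq of 6 embryoid body libraries, 1 per arm and day, was deposited by the authors as a table of FPKM values per gene symbol. TopHat 1.4.1, Cufflinks 1.3.0 and Cuffdiff, HOMER and the mm9 build are named, per the submitters' processing notes, and the handling of multiply mapped or antisense reads was not stated there or in the labels. The FPKM values deposited by the authors are normalised to transcript length and library size, so depth was estimated from the steps between low values. The peak list was deposited with a position and a score per peak, and the score is the authors' own value.

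Differences were computed as log2(FPKM + 1), with a floor of FPKM 1 in either library and a threshold of 2-fold. The 2 libraries allow no test. Python 3.11.15, numpy 2.4.6, pandas 2.3.3 and matplotlib 3.10.9 were used. The code that makes the calls was run on simulated counts with 4-fold differences planted in well expressed genes. These counts held counting error only, so they cannot show how calls fare under variation between libraries. Of the symbols 95.7% (98.2% of the counted genes) were found in a GENCODE annotation of the peaks' build, and peaks were assigned by centre within 10 kb of a start. Shares carry 95% Wilson intervals that cover counting error only, and the outer edge of each flank lay 500 bases from the peak.

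Genes were named by rule: the 15 largest differences per direction without small RNA, predicted and pseudogene symbols, up to 5 members past 2-fold per list, Pou3f1 and its relatives, a fixed set of lineage genes, the largest opposite differences between arms, the largest repeated or reversed steps at day 6, and genes with the best scored peaks. Other genes were chosen after their values were seen, also as further examples from the lists. The members, the 30 lists and the markers were chosen with earlier results of these data known. Alternatives were other pseudocounts, floors, thresholds, scalings and peak windows. A few items are not reported here.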

Additional observations from a re-analysis of the deposited data

Results flagged for a closer look

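A number of genes were at least 2-fold different between day 4 and day 2 in both arms but in opposite directions. The values below are the induced minus the control difference on the log2(FPKM + 1) scale, and with 1 library per arm and day the difference between arms was not tested. Higher in induced and lower in control bodies were Gm9846 (9.64), Amd1 (6.67), Mir3100 (3.08), Fez1 (2.73), Mir3101 (2.72), Steap1 (2.55), Mir4660 (2.43) and En2 (2.33). Lower in induced and higher in control bodies were Peg3 (-3.61), Lmo1 (-3.52), Mir186 (-3.50), Apeg3 (-3.35), S100a6 (-3.16), Clu (-2.67), 2200002D01Rik (-2.61) and Mir27b (-2.56).

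Amd1, an enzyme of polyamine synthesis, had 10.7 FPKM at induced day 4 against 0.0170 at day 2, where control had 0.0441 against 8.28. The predicted gene Gm9846 had 1594 against 126, where control had 4.58 against 352. How reads shared by near-identical copies were assigned was not stated, so both are uncertain. The microRNA values rest on short hairpins. Apeg3 is the antisense partner of Peg3, and reads from the pair cannot be told apart without strand. Fez1, an axon growth protein, had 6.52 against 2.02 in induced and 0.321 against 2.53 in control bodies. Steap1, a membrane protein of the cell surface, had 32.7 against 11.7 in induced and 5.13 against 12.5 in control bodies. Clu, the secreted chaperone clusterin, had 14.0 against 29.9 in induced and 18.2 against 5.24 in control bodies.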

How the results depend on the processing

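No paired analysis was possible because each arm and day has 1 library, and for the same reason no library could be left out. The count of genes at least 2-fold higher, 350, became 620 with a pseudocount of 0.1, 222 with a floor of 5, 1130 at 1.5-fold and 57 at 4-fold. The count of lower genes, 302, became 529, 196, 913 and 28 under these settings. Pseudocount 0.5 gave 467 higher and 408 lower genes, median ratio scaling 311 and 327, quantile normalisation 313 and 342, and leaving out small RNAs 307 and 252. Of 132 named genes past 2-fold none reversed, and all stayed past it under both pseudocounts. Under median ratio scaling 130 stayed past it, and under quantile scaling 129. These scalings moved Ednrb, Lmo2 and, under the second, Mir18 just within it. Of 16 named genes within 2-fold, 12 kept their difference to within 0.25 at a pseudocount of 0.1, and 4 moved by more. All 16 kept it under pseudocount 0.5 and under both scalings. List medians depended on the floor: without it they were 0.91 for the streak, 0.13 for endoderm, 0.27 for neural progenitors, 0.24 for Hox and Cdx and -0.017 for blood genes. Pseudocounts of 0.1 and 0.5 gave 2.85 and 2.46 for the streak, and 0.1 gave 1.302 for endoderm and -1.12 for feeder fibroblast genes. The share of genes with a peak, for higher, lower and other expressed genes, was 13.7%, 10.1% and 15.5% within 5 kb, 31.3%, 37.4% and 40.1% within 50 kb, and 8.96%, 7.34% and 11.4% for peaks of at least median score. Intervals lay below the share of the other genes for higher genes within 50 kb (26.6 to 36.5) and for lower genes within 5 kb (7.15 to 14.2) and with peaks of at least median score (4.85 to 10.96).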
